A study of Homo sapiens with 8 samples.

Results

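The genes described here are 10 core genes of the Notch pathway: the receptors NOTCH1, NOTCH2, NOTCH3 and NOTCH4, the ligands JAG1, JAG2, DLL1 and DLL4, and the target genes HES1 and HEY1. Every promoter window that carries one of these gene names was taken, and each window is given on its own with its strand. This gave 14 of the 38157 windows, for 9 of the 10 genes; no window carries the name NOTCH3, which is not analysed here. All 14 windows were among the 36440 with enough reads to be tested.

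The windows were read in chromatin of SiHa, an established line from a squamous carcinoma of the cervix, seeded in transwell plates whose membrane lets cells crawl through. At 10 h, cells found beyond the membrane (migrated) and cells left above it (non-migrated) were collected apart, and the labels name no drug or genetic change in either. Each fraction gave an input library and a library precipitated for H3K9me3 (histone H3 trimethylated on lysine 9), in replicate sets 1 and 2, so that 4 groups of 2 libraries (8 in all) were sequenced. According to the protocols in the labels, a TruSeq kit with gel extraction and removal of duplicate reads was used for set 1, and beads with an NEB kit for set 2, the second biological replicate, so kit and set cannot be told apart. The cells are 1 line and no RNA was measured, so neither the expression of the genes nor the identity of the cells could be checked from these data.

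Notch receptors are single-pass membrane proteins that are cut when a ligand on a neighbouring cell pulls on them, and the freed intracellular part enters the nucleus. There it joins the DNA-binding protein RBPJ and a Mastermind coactivator and switches on genes such as HES1 and HEY1, which encode transcriptional repressors. In squamous epithelium NOTCH1 is best known for its part in the switch from dividing basal cells to differentiating cells. H3K9me3 is the mark of constitutive heterochromatin, found on repeats, satellite DNA and clusters of zinc-finger genes, and it is typically sparse at promoters rich in CpG dinucleotides.

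Depth limited all of the values below. The libraries held 88028 to 1729061 reads in promoter windows, and the 2 H3K9me3 libraries of set 1 were the shallowest, with a median of 2 and 3 reads a tested window against 18 and 23 in set 2. Of the control genes, ZNF208, a gene of a zinc-finger cluster, stood at 3.07 ± 0.35 and ACTB, which encodes cytoplasmic actin, at -2.16 ± 0.46 (log2 of H3K9me3 over input ± SE).

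A window spans 2000 bases upstream to 100 bases downstream of a transcript start in hg19. The most upstream window on a gene's own strand is called its start window here; a window on the opposite strand that contains the same start is called divergent; and a window that lies further inside the gene is called internal. The 9 genes have 1 start window each, NOTCH1 and DLL1 have a divergent window each, and NOTCH1, NOTCH2 and JAG1 have an internal window each. The divergent windows overlap the start windows by 550 bases (NOTCH1) and 430 bases (DLL1), so reads in the overlap count for both.

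The promoter sequences of 5 of these genes are shown because the values are set beside CpG content further on, with every CG dinucleotide in capitals. They run 5′ to 3′ on the gene's strand, from 250 bases before to 50 bases after the gene's start, from RefSeq on GRCh38.p14 and matched by symbol, since the windows themselves are on hg19. NOTCH1 (chr9:136545999-136546298, minus strand) holds 42 CG, NOTCH2 (chr1:120069613-120069912, minus strand) 33, JAG1 (chr20:10673950-10674249, minus strand) 24, HES1 (chr3:194135898-194136197, plus strand) 21 and NOTCH4 (chr6:32224018-32224317, minus strand) 5.
NOTCH1: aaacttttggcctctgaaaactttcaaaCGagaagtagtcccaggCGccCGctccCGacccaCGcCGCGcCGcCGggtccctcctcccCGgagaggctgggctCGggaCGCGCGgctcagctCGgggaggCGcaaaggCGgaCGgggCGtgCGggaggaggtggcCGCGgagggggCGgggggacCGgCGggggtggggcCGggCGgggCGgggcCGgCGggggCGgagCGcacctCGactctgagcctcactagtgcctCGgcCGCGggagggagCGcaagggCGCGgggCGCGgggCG
NOTCH2: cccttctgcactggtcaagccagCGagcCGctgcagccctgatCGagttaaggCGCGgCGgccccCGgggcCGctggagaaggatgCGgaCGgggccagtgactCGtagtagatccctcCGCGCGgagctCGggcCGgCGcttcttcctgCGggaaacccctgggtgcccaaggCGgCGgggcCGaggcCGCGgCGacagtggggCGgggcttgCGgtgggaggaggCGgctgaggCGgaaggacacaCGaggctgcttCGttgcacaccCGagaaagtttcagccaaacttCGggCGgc
JAG1: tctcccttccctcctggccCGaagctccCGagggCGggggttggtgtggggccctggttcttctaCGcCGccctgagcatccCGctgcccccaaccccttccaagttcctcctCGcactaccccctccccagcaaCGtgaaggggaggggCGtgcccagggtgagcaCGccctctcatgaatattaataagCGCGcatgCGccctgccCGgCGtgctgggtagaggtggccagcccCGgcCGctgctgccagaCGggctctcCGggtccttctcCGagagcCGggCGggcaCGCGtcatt
HES1: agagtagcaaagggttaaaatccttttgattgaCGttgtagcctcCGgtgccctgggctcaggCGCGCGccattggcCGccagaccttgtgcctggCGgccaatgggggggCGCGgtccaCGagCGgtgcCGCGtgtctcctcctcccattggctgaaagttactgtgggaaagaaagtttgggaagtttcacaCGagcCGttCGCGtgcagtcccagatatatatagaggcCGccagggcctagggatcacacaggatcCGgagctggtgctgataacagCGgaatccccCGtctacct
NOTCH4: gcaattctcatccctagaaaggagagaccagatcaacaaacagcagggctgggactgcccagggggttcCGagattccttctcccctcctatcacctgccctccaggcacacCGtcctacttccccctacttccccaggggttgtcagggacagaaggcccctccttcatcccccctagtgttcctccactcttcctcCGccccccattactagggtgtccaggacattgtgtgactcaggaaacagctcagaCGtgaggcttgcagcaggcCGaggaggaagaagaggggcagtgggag

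HES1 is the classic direct target of RBPJ. A stretch of 40 bases of its promoter (chr3:194136054-194136093, GRCh38.p14, plus strand) is shown for its 2 matches to TGGGAA, the RBPJ core letters. They are in capitals and begin at bases -84 and -70 from the start. Only the first is part of the longer form GTGGGAA, which HES1 held 1 time and which 6.25% of all RefSeq promoters of this length held. Both matches run in the same direction. Only these 2 forms were searched, so other forms of an RBPJ site in the stretch are not marked. Whether any sites act as a pair was not tested.
HES1 stretch: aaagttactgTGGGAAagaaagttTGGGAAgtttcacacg
TGGGAA was searched on both strands in the promoters of the 7 genes with a window and a usable RefSeq entry (these 5, JAG2 and DLL4), and HES1 alone held it. Among all 35116 RefSeq promoters of this length, 24.0% held TGGGAA and 3.80% held it at least 2 times. A match of letters is a description and says nothing of binding.

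H3K9me3 was compared with input first, averaged over both fractions, to ask whether these promoters carry the mark at all. The value is log2 of H3K9me3 over input on a scale whose zero is set by trimmed-mean scaling, and the median tested window stood at -0.34. Of the 14 windows, 10 were lower than input, 1 was enriched and 3 passed no threshold (limma, adjusted p of 0.05 over all tested windows). Among all tested windows 35.2% were lower and 15.9% enriched; with the deposited library constants in place of this scaling these were 54.0% and 0.933%. The median over the 14 windows was -1.74.

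NOTCH1 had few H3K9me3 reads at its start. At the start window (chr9:139440214-139442314, minus strand, ENSG00000148400), non-migrated cells of set 2 had 3 H3K9me3 reads against 107 input reads, and migrated cells 2 against 109. Set 1 gave 0 against 3 and 1 against 22. In set 2 both fractions thus had far fewer H3K9me3 than input reads, and in set 1 the counts were too few to rank. The fitted log2 was -3.19 ± 0.50, an H3K9me3 level 0.109 of input (adjusted p = 4.47e-06), with 2.42% of tested windows lower. Fitted in set 2 alone the log2 was -4.32.

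The divergent NOTCH1 window (chr9:139438664-139440764, plus strand), whose start lies 350 bases from the gene's own start on the other strand, had 0 against 9 and 0 against 15 reads in set 1 and 6 against 75 and 4 against 65 in set 2, non-migrated first. Its log2 was -2.88 ± 0.44 (adjusted p = 2.95e-06), within 0.31 of the start window it overlaps. Both NOTCH1 windows at the start were called lower under all 18 alternatives tried.

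Inside the gene the reading was different. The internal NOTCH1 window (chr9:139435333-139437433, plus strand), 3 kb inside, had 2, 2, 62 and 29 H3K9me3 reads against 16, 13, 78 and 99 input reads, in the order non-migrated and migrated of set 1, then of set 2. Its log2 of -0.52 ± 0.38 did not pass the threshold (adjusted p = 0.260). It was past the threshold with the deposited library constants, at -1.46, and its sign turned without the non-migrated H3K9me3 library of set 1 (0.058) or the migrated input of set 2 (0.041).

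NOTCH2 had the only enriched window and also one of the lower start windows. At its start (chr1:120612140-120614240, minus strand, ENSG00000134250) the H3K9me3 reads were 0, 0, 0 and 2 against 5, 9, 13 and 14 input reads, in the same order. The log2 was -2.47 ± 0.53 (adjusted p = 0.000228), and the call was lost in set 2 alone, at -2.72. At the internal window (chr1:120544025-120546125, minus strand), 68.1 kb inside, the H3K9me3 reads were 9, 1, 39 and 42 against 6, 10, 14 and 13 input reads. Here H3K9me3 exceeded input in every pair after scaling except migrated set 1, which had 1 H3K9me3 read. The log2 was 1.59 ± 0.41, a level 3.01 times input (adjusted p = 0.00179), and 96.7% of tested windows were lower.

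Leaving out the non-migrated H3K9me3 library of set 1 or the migrated H3K9me3 library of set 2 ended the NOTCH2 enrichment call, at log2 1.09 and 0.92, as did the deposited library constants, at 0.53. NOTCH2 has near-identical partial copies in the genome, so its reads are uncertain: the input of both windows stood at 0.329 of the median window in set 2, and whether reads were split among copies was not tested.

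NOTCH4, a receptor gene of the major histocompatibility region that is best known from endothelium, was the only start window of the 9 that passed no threshold. Its window (chr6:32191744-32193844, minus strand, ENSG00000204301) held 2, 0, 20 and 17 H3K9me3 reads against 13, 15, 34 and 25 input reads, in the same order. In set 2 the scaled ratios were 0.818 in non-migrated cells (95% counting interval 0.446 to 1.46) and 1.15 in migrated cells (0.583 to 2.22), so both spanned equality with input. The fitted log2 was -0.92 ± 0.41 (adjusted p = 0.0601). It passed the threshold in 4 alternatives: at -1.89 with the deposited constants, at -1.01 with median-of-ratios factors, at -1.12 without the non-migrated H3K9me3 library of set 1 and at -1.29 without the migrated H3K9me3 library of set 2. It moved the other way to -0.47 with no replicate block, -0.28 with 2 reads added, -0.23 when H3K9me3 of migrated cells in set 1 was left out and 0.17 in set 2 alone, so its value is not settled by these libraries.

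**Figure D1:**
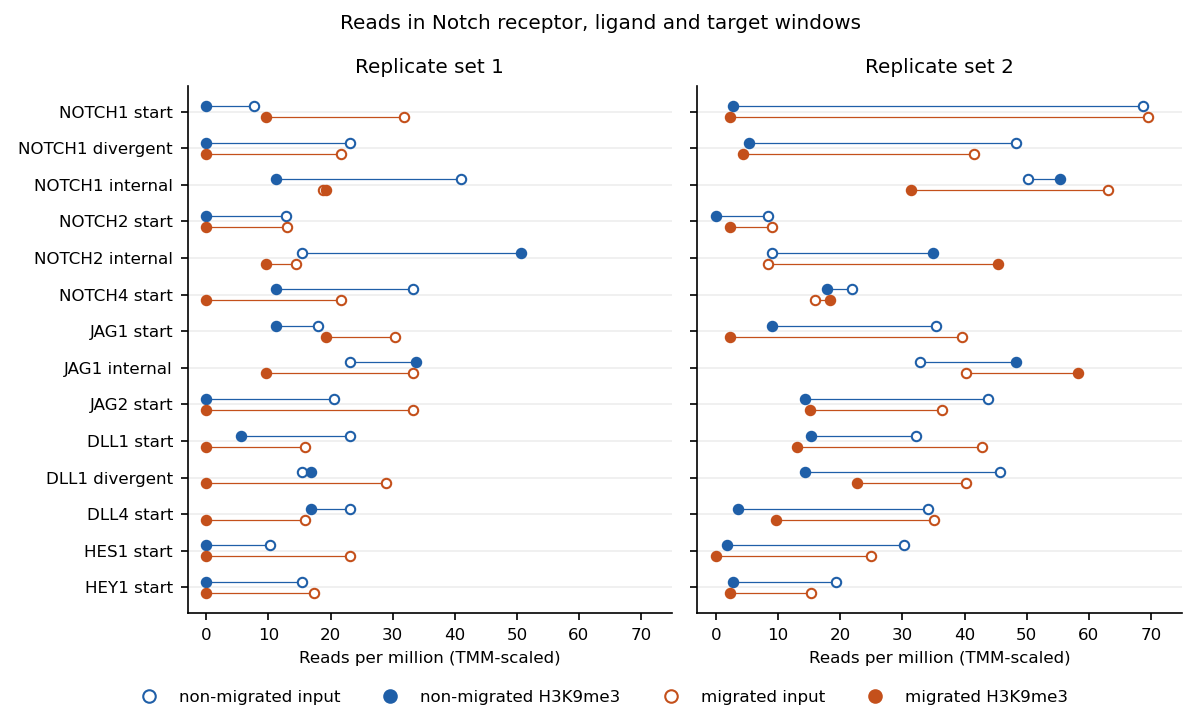
Read density (x axis, TMM-scaled RPM) in each of the 14 windows (y axis), by replicate set; open circles are input, filled circles H3K9me3, and a line joins the pair from the same fraction. In set 2 the NOTCH1 start window has the widest gap, from 68.8 and 69.5 in input to 2.68 and 2.16 in H3K9me3, while the NOTCH2 internal window runs the other way, in migrated cells from 8.29 to 45.4.

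Among the ligands, all 4 start windows were lower than input. JAG1, the Jagged ligand most studied in epithelium, had 2, 2, 10 and 2 H3K9me3 reads against 7, 21, 55 and 62 input reads at its start window (chr20:10654508-10656608, minus strand, ENSG00000101384). The scaled ratios of set 2 were 0.253 (non-migrated) and 0.0546 (migrated). The log2 was -1.74 ± 0.44 (adjusted p = 0.0013), and the call was lost without the non-migrated H3K9me3 library of set 1 (-0.86) or the migrated H3K9me3 library of set 2 (-1.03).

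The internal JAG1 window (chr20:10640578-10642678, plus strand), 12 kb inside, had 6, 1, 54 and 54 H3K9me3 reads against 9, 23, 51 and 63. Of the 4 pairs, 3 lay above input after scaling, and the migrated pair of set 1, with 1 H3K9me3 read, lay below. Its log2 was 0.17 ± 0.35 (adjusted p = 0.711). In set 2 alone it was 0.79 and past the threshold; without the migrated H3K9me3 library of set 1 it was 0.77 and also past it.

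JAG2, the second Jagged ligand, had 0, 0, 16 and 14 H3K9me3 reads against 8, 23, 68 and 57 at its start (chr14:105635061-105637161, minus strand, ENSG00000184916). H3K9me3 was below input in all 4 pairs, and the log2 of -2.21 ± 0.41 (adjusted p = 3.51e-05) kept its call under all 18 alternatives. Its size did not hold, at -1.19 in set 2 alone. In set 1, where neither H3K9me3 library had a read, the upper 95% counting bounds of the scaled ratio were 1.29 (non-migrated) and 1.15 (migrated).

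DLL4, a Delta ligand best known from sprouting blood vessels, had 3, 0, 4 and 9 H3K9me3 reads against 9, 11, 53 and 55 (chr15:41219538-41221638, plus strand, ENSG00000128917). The log2 was -1.74 ± 0.47 (adjusted p = 0.0025). The call was lost without the migrated H3K9me3 library of set 1 (-0.63), the non-migrated H3K9me3 library of set 2 (-0.89) or the migrated input of set 2 (-1.34).

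DLL1, the Delta ligand with a divergent window, had 1, 0, 17 and 12 H3K9me3 reads against 9, 11, 50 and 67 at its start (chr6:170599461-170601561, minus strand, ENSG00000198719). The log2 there was -1.49 ± 0.42 (adjusted p = 0.00375), lost without the migrated input of set 2 (-1.03). The divergent window (chr6:170597791-170599891, plus strand) had 3, 0, 16 and 21 against 6, 20, 71 and 63, a log2 of -1.30 ± 0.42 (adjusted p = 0.0105). This was the least stable of the lower calls, lost in 7 alternatives, among them the fits that left out the H3K9me3 library of migrated cells in set 1 (-0.30) or that of non-migrated cells in set 2 (-0.56). The fits without the migrated input of set 1 (-0.98), the non-migrated input of set 2 (-0.96) or the migrated input of set 2 (-1.22) lost it too.

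Both target genes were lower at their starts. HES1 had 0, 0, 2 and 0 H3K9me3 reads against 4, 16, 47 and 39 input reads (chr3:193851934-193854034, plus strand, ENSG00000114315). Only 1 of the 4 H3K9me3 libraries had a read in it. The log2 was -3.47 ± 0.52, a level 0.0901 of input (adjusted p = 2.56e-06), with 1.11% of tested windows lower. This estimate was the lowest of the 14 windows, and it was so in 13 of the 17 alternatives in which HES1 was fitted. The NOTCH1 start was lower with 2 reads added (-2.25 against -1.95) and with no replicate block (-3.63 against -3.59), and the NOTCH2 start without the non-migrated H3K9me3 library of set 1 (-2.76 against -2.59) or the migrated H3K9me3 library of set 2 (-2.93 against -2.76). In non-migrated cells alone the starts of NOTCH1 (-3.55) and NOTCH2 (-3.29) lay below HES1 (-3.16). HEY1 had 0, 0, 3 and 2 reads against 6, 12, 30 and 24 (chr8:80679998-80682098, minus strand, ENSG00000164683) and a log2 of -2.43 ± 0.48 (adjusted p = 9.40e-05). HES1 and HEY1 kept their calls under all 17 alternatives in which each was fitted.

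**Figure D2:**
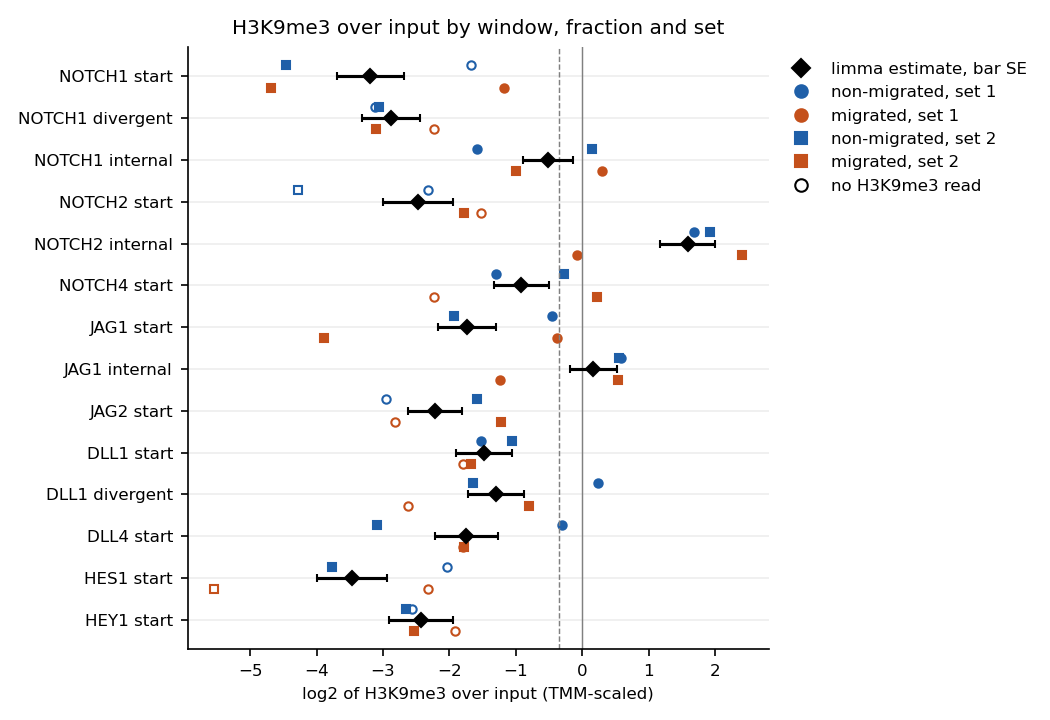
Log2 of H3K9me3 over input (x axis) in the 14 windows; diamonds are the limma estimates over both fractions with SE bars, circles set 1 and squares set 2, open where the window had no H3K9me3 read, which puts the point at a value set by the 0.5 reads added. The solid line marks 0 and the dashed line the median tested window at -0.34; the NOTCH2 internal window (1.59) is the only diamond past the threshold above 0, and HES1 (-3.47) is the lowest.

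In 3 genes the mark could be compared between the start and the inside of the same gene. The internal window exceeded the start window by 4.06 on the log2 scale in NOTCH2, by 2.68 in NOTCH1 and by 1.90 in JAG1. Over the 4872 internal windows of 2928 genes that lie more than 2.1 kb inside their gene, the median difference was 0.41 and 61.6% were higher than their start window. The NOTCH2 difference exceeded 99.5% of these, the NOTCH1 difference 93.9% and the JAG1 difference 84.7%. A difference can be large because the start is low. The median internal value was -0.23, with 14.4% enriched, and the median start value -0.79. NOTCH1 internal (-0.52) lay below that internal median and JAG1 internal (0.17) above it. The starts of NOTCH1 (-3.19), NOTCH2 (-2.47) and JAG1 (-1.74) all lay below the start median. With a distance of 5 kb, which leaves out the NOTCH1 window's own class, the shares were 99.5%, 93.7% and 84.4%. The order in distance (3, 12 and 68.1 kb) was also the order of the 3 internal values, which is a description of 3 windows.

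**Figure D3:**
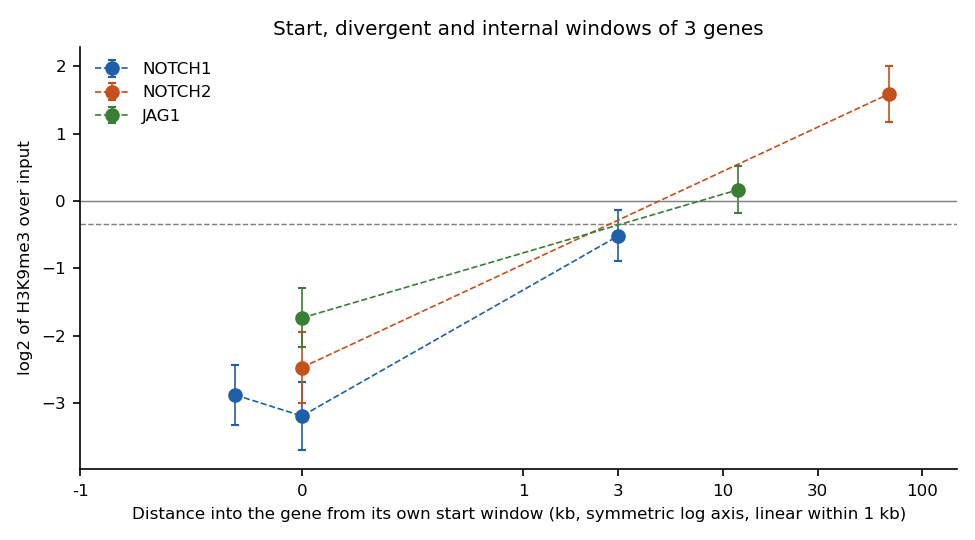
Log2 of H3K9me3 over input (y axis, limma estimate with SE bars) against the distance of each window's start from the gene's own start window (x axis, kb, symmetric log) for NOTCH1, NOTCH2 and JAG1; dashed lines join windows of a gene and are not a fit. Each gene's internal window lies above its start window, by 4.06 in NOTCH2.

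The start windows were set beside those of other genes. Of the 9 start windows 8 were lower than input, with a median of -2.21. Over the start windows of 10601 genes with a strand in RefSeq, 45.7% were lower, 11.9% were enriched and the median was -0.78. Promoters with more CpG had lower values in that set. Those with 0 to 5 CG had a median of -0.01 and 18.9% lower, those with 6 to 24 had -0.70 and 43.9%, and those with 25 to 77 had -1.23 and 58.8%. DLL1 and HEY1 had no usable RefSeq entry and could not be placed in a CpG class. Among the other members NOTCH4, with 5 CG, was the only one in the lowest class. It was also the only one of the 9 start windows without a call, at an adjusted p of 0.0601 (limma), close to the threshold. HES1 and JAG1 fell in the middle class, and DLL4 (27), NOTCH2 (33), NOTCH1 (42) and JAG2 (46) in the highest. Within the members placed in a class, JAG2, with the most CG, stood at -2.21 and HES1, with 21, at -3.47. The relation was not tested.

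The surroundings differed between loci. Lower and enriched windows were counted within 500 kb on each side, leaving out the gene's own windows. Among all tested windows 35.2% were lower and 15.9% enriched, and differences between loci were not tested. Near NOTCH1 32 were lower and 3 enriched of 50 tested windows, near DLL4 23 and 1 of 38, and near NOTCH4 29 and 2 of 48. Near JAG2 there were 18 and 7 of 37, and near DLL1 10 and 1 of 15. Near NOTCH2 there were 2 lower and 2 enriched of 8, near JAG1 2 and 3 of 12, near HEY1 2 and 2 of 9, and near HES1 5 and 1 of 22. NOTCH4 is thus a window without a call among neighbours of which most were lower (median -1.56), and HES1 a window far below the median of its neighbours (-0.40).

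Each fraction was then fitted on its own. In non-migrated cells 8 of the 14 windows were lower and 1 was enriched, against 23.6% and 8.42% of all tested windows. In migrated cells the counts were also 8 and 1, against 28.2% and 12.9%. The lower calls were shared for 6 windows: NOTCH1 start and divergent, JAG2, DLL4, HES1 and HEY1. The share of all tested windows lower in both fractions is not given here, so this overlap has no background to be judged by. The NOTCH2 internal window was the enriched one in both, at 1.5 ± 0.53 in non-migrated and 1.68 ± 0.56 in migrated cells (adjusted p = 0.0277 and 0.0172). NOTCH2 start and DLL1 divergent passed only the test in non-migrated cells, and DLL1 start and JAG1 start only that in migrated cells, which does not show that the fractions differ there. Without the replicate block the migrated count of lower windows was 5. The non-migrated count fell to 5 without its H3K9me3 library of set 1 and to 1 without its input of set 2, and the migrated count to 5 without its input of set 1, to 2 without its input of set 2 and to 2 without its H3K9me3 library of set 2. The enriched call was lost in non-migrated cells without either non-migrated input, the non-migrated H3K9me3 library of set 1 or either migrated input, and in migrated cells without either migrated input or the H3K9me3 library of set 2 of either fraction.

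Where a fraction had no H3K9me3 read the ratio is a bound. At the NOTCH2 start in non-migrated cells 0 reads stood against 18 input reads over both sets. With a floor of 3 reads over both libraries that is 4.0-fold lower. At HES1 in migrated cells 0 reads stood against 55, which is 8.37-fold lower with the same floor. The floors take the input reads as exact, so they overstate what the counts bound. In set 2 alone, with input counting error included, the upper 95% counting bounds of the scaled ratio were 0.456 (NOTCH2 start, non-migrated) and 0.168 (HES1, migrated). These bounds and floors cover no spread between replicates.

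The question of the design is whether H3K9me3 at these genes differs between cells that crossed the membrane and cells that did not. No window of the 14 passed the threshold for the input-corrected difference, nor did any at an unadjusted p under 0.05; the smallest unadjusted p was 0.127. Over all tested windows the share called was 0%, with 3.53% at an unadjusted p under 0.05 (limma), and a quasi-Poisson model called 2 windows, neither of them among the 14. That share depends on single libraries: 184 windows were called without the non-migrated H3K9me3 library of set 2, 97 when that of migrated cells in set 1 was left out, and 12 without each of the other H3K9me3 libraries, with 0 of the 14 among them each time. Estimates ran from -0.99 ± 0.83 at the JAG1 start to 1.64 ± 1.05 at the NOTCH2 start (log2 of migrated over non-migrated), with 9 above 0 and 5 below. The intervals are wide: at the NOTCH1 start the 95% interval was -1.20 to 2.63, at HES1 -2.66 to 1.43 and at JAG1 internal, the tightest, -1.22 to 0.77. A difference inside these intervals cannot be told from none in this fit.

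The NOTCH1 internal window shows how the sets compare. In set 2 its scaled ratio was 1.11 in non-migrated cells (95% counting interval 0.779 to 1.56) and 0.496 in migrated cells (0.316 to 0.757). These intervals do not overlap, but they cover counting error only. How often such intervals separate over all windows is not given here, so the gap does not show a difference between the fractions. In set 1 the order was the opposite, 0.274 and 1.02, from 2 H3K9me3 reads in each. The difference over both sets was -0.74 ± 0.50 (adjusted p = 0.999). JAG1 start was likewise lower in migrated cells of set 2, at 0.0546 against 0.253, and level in set 1, at 0.631 against 0.627, where each library had 2 H3K9me3 reads.

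The input libraries serve as the background of this comparison. No input difference between the fractions passed the threshold at any of the 14 windows (share called over all windows 0%; smallest unadjusted p 0.217, with 1.56% of all windows under 0.05; limma). Its estimates ran from -0.50 at NOTCH4 to 0.33 at JAG1 internal.

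**Figure D4:**
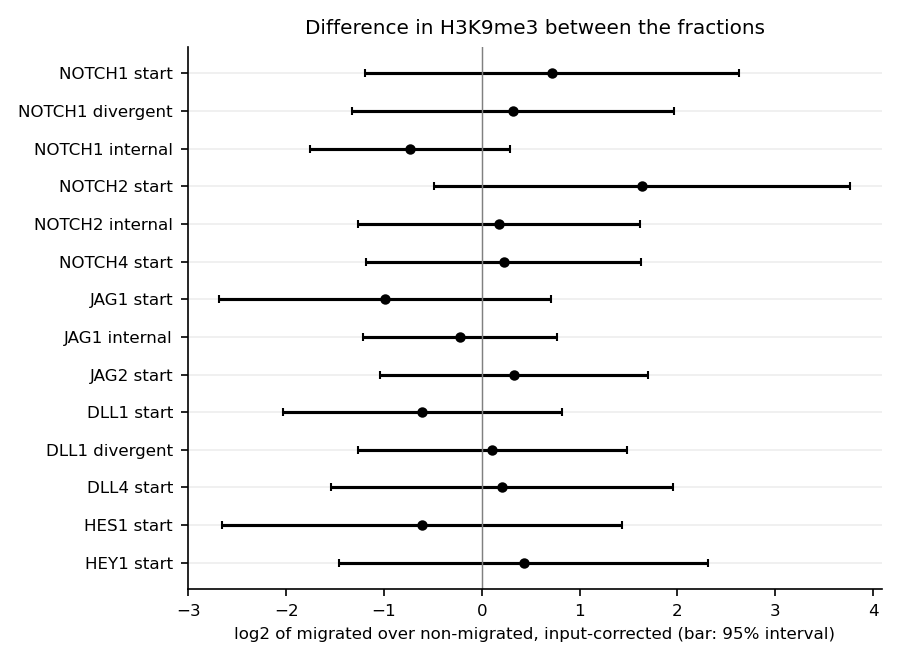
Log2 of migrated over non-migrated H3K9me3 after correction for input (x axis) in the 14 windows, as limma estimates with 95% intervals. All 14 intervals include 0; the NOTCH2 start has the highest estimate (1.64) and the JAG1 start the lowest (-0.99).

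Other genes of the pathway were read from a list of 69 genes, of which 59 had a tested window. The window with the most reads stood for each gene. Reads of the H3K9me3 libraries count towards that total, so a window could be picked because it was enriched. Of the 59 genes, 32 (54.2%) were lower than input and 4 (6.78%) enriched, with 23 past no threshold and a median of -1.09. Among all tested windows 35.2% were lower and 15.9% enriched. The start windows of 10601 genes, a set of gene promoters, had 45.7% and 11.9%, with a median of -0.78, so the list lay nearer to that set. The counts by role below are to be read beside these shares and were not tested. Over all 100 tested windows of these genes 52 were lower and 5 enriched. The list was drawn up with earlier results of these data known.

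By role, 6 of 8 genes of receptor endocytosis and turnover were lower, 3 of 4 glycosyltransferases that modify the receptors, 3 of 4 ubiquitin ligases that act on ligands, 7 of 12 corepressors and 2 of 7 protease genes. NUMB, an endocytic inhibitor of Notch, was at -2.80 ± 0.43 in a window on the strand opposite to the gene (adjusted p = 3.12e-06). MIB2, a ligase that drives ligand endocytosis, had the smallest p of the list at -3.32 ± 0.45 (adjusted p = 5.54e-07).

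In the HES and HEY family 5 of 8 genes were lower. HES4 stood at -2.95 ± 0.42 and BHLHE41, a repressor of the circadian clock, at -2.75 ± 0.42 (adjusted p = 1.11e-06 and 2.82e-06). HES5 (-1.08 ± 0.41) and HES7 (-1.38 ± 0.41), the segmentation clock gene, were also lower. HEYL stood at 0.56 ± 0.33 and passed no threshold, unlike HEY1. HES6 and HEY2 have no window under those names and are not analysed here.

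The nuclear complex and the other ligands were less uniform. RBPJ itself stood at 0.20 ± 0.39 (adjusted p = 0.688), so the partner of the receptors in the nucleus passed no threshold. Of the 9 genes of this complex, 4 were lower and 1, the coactivator MAML3, was enriched at 0.92 ± 0.37 in a window on the strand opposite to the gene. Of 5 other ligands 0 were lower: the decoy-like ligand DLL3 was at -0.84 ± 0.40, DLK1, a non-canonical ligand, at 0.54 ± 0.34, and CNTN1, a neural adhesion protein, was enriched at 1.32 ± 0.33 (adjusted p = 0.00117). The remaining enriched genes were both corepressors, CTBP1 at 2.1 ± 0.35 and the deacetylase HDAC2 at 1.06 ± 0.39. The windows of the enriched genes were picked by a total that holds H3K9me3 reads, a choice that can favour enrichment. Between the fractions 0 of the 59 genes were called, and 2 (CCND1 and EP300) had an unadjusted p under 0.05 (limma). Over all tested windows 3.53% had such a p, so 2 of 59 is near that share.

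**Figure D5:**
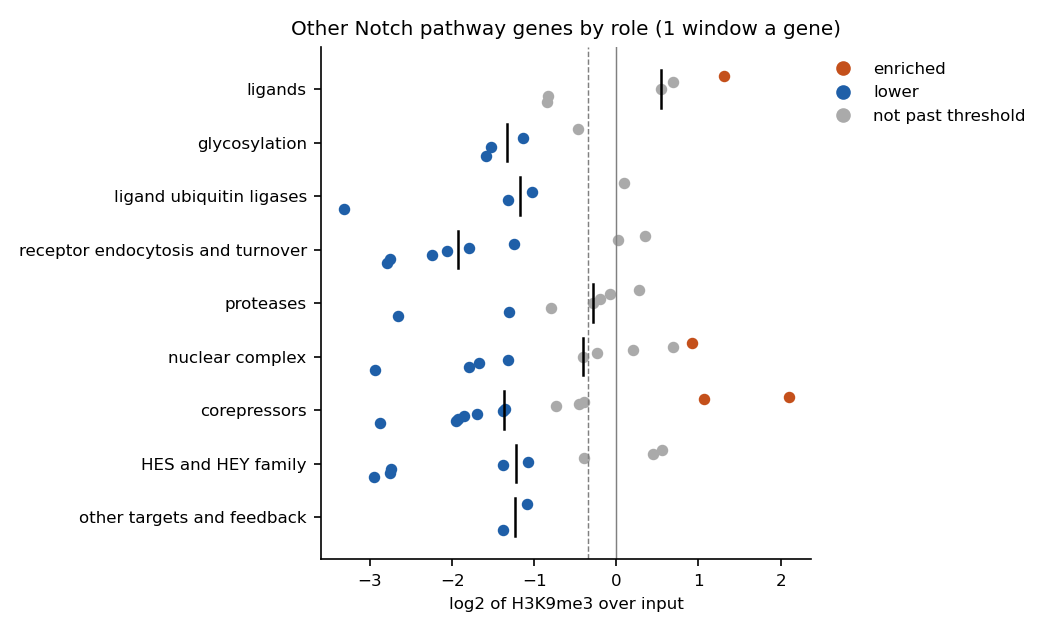
Log2 of H3K9me3 over input (x axis, limma estimate) for 59 other Notch pathway genes by role (y axis); each point is 1 gene, orange enriched, blue lower, grey past no threshold, and the black bar is the median of the role. Points of receptor endocytosis and turnover have the lowest median (-1.93) and the 5 other ligands the highest (0.54).

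The NOTCH1 start and JAG1 internal windows were compared with the 19386 tested windows that had a mean of at least 20 reads, by the distance between their 4 values (both fractions in both sets). The windows most like the NOTCH1 start were those of ATG3 (distance 0.427), TMEM186 (0.808) and RAD52 (0.849). Those most like JAG1 internal were of FRMPD3-AS1 (0.0961), RP11-166D18.1 (0.232) and KCNIP1 (0.243). JAG1 internal had 729 windows within a distance of 1 (3.76% of these), and NOTCH1 start had 9.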

How the data were processed

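Per the file headers, the deposited values are on a log2 scale for promoter windows in hg19; tools named in the submitters' processing notes are Bowtie2 2.2.9, SAMtools 1.3 and FastQC 0.11.5, and the window counter was not given in the sources used here. Every deposited log2 value was that of a whole number of reads, shifted by a constant of its library, and empty windows were entered as log2 of 0.9; 100% of values came out whole within 0.01. The recovered reads were tested with limma 3.58.1 (voom weights, R 4.3.3) on log2 of reads plus 0.5, with trimmed-mean (TMM) scaling, the replicate set as a block and Benjamini-Hochberg adjustment over 36440 windows. Windows needed 2 libraries at or above the equivalent of 10 reads at median library size, and a total of 15 reads. Each comparison was fitted as a coefficient of its own by recoding the fraction, because contrasts taken after weighting are approximate. The model has 2 residual degrees of freedom and 33.2 from the prior over windows.

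The sets pair the fractions per the labels. Differences between set 1 and set 2 correlated between the fractions at 0.147 (H3K9me3) and 0.469 (input). Kit and set cannot be told apart, so these correlations cannot show that the fractions are paired. The migrated H3K9me3 library placed in set 1 has another replicate number in its description than in its title, which was used. The members and lists were chosen with earlier results of these data known. Every member window is named; pathway genes named are those enriched, the 4 lower genes of smallest p and fixed relatives, and CCND1 and EP300 were named after their values were seen. The limit of 2.1 kb for internal windows replaced one of 5 kb after the values were seen. On simulated data the fit recovered the direction and size of known changes, but falls were called far less often than rises of the same fold. The changes were the same in both sets and were planted only in well-read windows. The NOTCH2 start (43 reads in all libraries) and HEY1 start (77) had fewer reads than any of those, so recovery was not shown for them. RefSeq promoters of GRCh38.p14 were matched by symbol for 7 of 9 genes. Alternatives covered scaling, read filters, the count added, weights, model, block and each library left out.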

Additional observations from a re-analysis of the deposited data

How the results depend on the processing

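The averaged comparison had 1 enriched and 10 lower windows. The enriched count was 0 with the deposited library constants and 2 in set 2 alone (chosen after seeing the data), and 0 to 2 with each library left out. The lower count was 6 with a mean of at least 20 reads, where only 8 of the 14 windows were tested, and 7 to 10 with each library left out. In non-migrated cells the enriched count was 0 with the deposited constants and 0 without precision weights, and 0 to 1 with each library left out; the lower count was 3 with at least 20 reads and 1 to 8 with each library left out. In migrated cells the enriched count was 0 with the deposited constants, 0 with at least 20 reads and 0 without precision weights, and 0 to 1 with each library left out. There the lower count was 13 with the deposited constants, 5 with at least 20 reads, 5 with 2 reads added, and 2 to 10 with each library left out. Without the replicate block, the lower count was 10 averaged over fractions, 6 in non-migrated and 5 in migrated cells. All windows of the pathway genes gave 52 lower in place of 32.

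Signs of called windows, or of windows called after the turn, changed in 5 fits. In non-migrated cells these were DLL1 divergent (0.49) and DLL4 (0.076), both without that fraction's H3K9me3 library of set 2. With each library left out, DLL1 divergent ran from -2.05 to 0.49 there and DLL4 from -3.17 to 0.076. In migrated cells DLL4 turned (0.13) without that fraction's H3K9me3 library of set 1. NOTCH2 internal (-0.10) and JAG1 internal (-1.63) turned in migrated cells with the deposited constants. With each library left out, migrated values ran from -3.54 to 0.13 (DLL4), 0.032 to 2.58 (NOTCH2 internal) and -1.15 to 0.75 (JAG1 internal). The cause was not tested. In the comparisons with input, a further 24 fits turned the sign of a window past no threshold in either fit: NOTCH4 start, NOTCH1 internal, JAG1 internal and, in non-migrated cells, JAG1 start (0.17 without that fraction's H3K9me3 library of set 1). Averaged over fractions these were NOTCH4 start (0.17, set 2 alone), NOTCH1 internal (0.058 and 0.041, 1 library left out) and JAG1 internal (-0.85 with the deposited constants, -0.13 and -0.30 with 1 library left out). The zero of the scale moves with the choices: the median tested window shifted by -0.95 with the deposited constants, 0.12 with total reads, 0.30 with no read filter, 0.55 with at least 20 reads, 0.32 with 2 reads added and 0.34 in set 2 alone. The split of all calls was 30.04% enriched and 26.0% lower with at least 20 reads, 22.4% and 28.0% with no read filter, 25.2% and 28.7% with 2 reads added, and 32.6% and 31.5% in set 2 alone, so calls are relative to the scaling. The fraction difference was called at 0 of the member windows in every alternative in which it was fitted. Set 1 H3K9me3 depth, with 0 to 9 reads a member window, limits every value that rests on it.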
